A study of Homo sapiens with 6 samples.

Results

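The genes examined here encode the translation initiation and elongation factors of human cells. Members were chosen by name: protein-coding genes whose symbol starts with EIF1, EIF2B, EIF3, EIF4, EIF5, EIF6, EEF1 or EEF2, without the EIF4EBP genes, EIF1AY, EEF1E1, EEF2K and pseudogenes. Of the 60683 genes in the count table, 54 are members. The names also bring in some genes with other work: EIF4A3 of the exon junction complex, the transport protein EIF4ENIF1, the nuclear protein EIF1AD and 6 genes for methyltransferases that act on elongation factors or a readthrough transcript of one of them. Transcripts were measured by mRNA sequencing in RCC4 cells, an established line from a human clear cell kidney carcinoma without working VHL, the ubiquitin ligase subunit that targets HIF for degradation. Unmodified cells (parental, genotype wild type, n = 3) were compared with cells of the genotype ATF4 KO (ATF4 knockout, n = 3), and no treatment is named for either group. How ATF4 was removed, in 1 clone or in a mixed population, is not in the labels, nor is it stated that replicates were grown separately. The p-values here thus rest on differences among replicates that may be technical.

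Initiation begins when eIF2 carries the initiator tRNA to the small ribosomal subunit, with eIF1, eIF1A, eIF3 and eIF5 bound to it. The eIF4 factors bind the capped 5′ end of the mRNA and unwind it, and eIF5B joins the large subunit once the start codon is found. eEF1A then delivers aminoacyl-tRNAs, and eEF2 moves the ribosome along. When stress kinases phosphorylate eIF2, its exchange factor eIF2B is inhibited, most translation slows and that of ATF4, a bZIP transcription factor, increases. The question the comparison addresses is which factor mRNAs differ when ATF4 is missing.

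Libraries held 41002611 to 46755358 counted reads, so 3 counts, the limit a 0 allows, correspond to 0.0634 to 0.0729 counts-per-million (CPM) for counting error only. The 7 kidney epithelium and clear cell carcinoma markers that were checked were all detected in both groups. They summed to 5859 to 6214 CPM in parental and 6556 to 6764 CPM in knockout libraries. VIM made up most of each sum, with 195435 to 240745 raw counts per library, and no other of the 7 exceeded 22270. CA9 was higher in the knockout, at 3854 to 4688 raw counts against 683 to 757. NDUFA4L2 was higher there too, at 19126 to 22270 against 11261 to 12629. Raw counts of KRT8, KRT18, PAX2 and PAX8 overlapped between the groups. Raw counts are not scaled for library size, so this overlap does not show equal levels. The 8 leukocyte, endothelial and fibroblast markers summed to at most 0.273 CPM in any library, and 2 of them were at 0 in every parental and 6 in every knockout library. ATF4 itself (chr22:39519695-39522685, plus strand, GRCh38) was present at 239, 251 and 243 CPM in the parental and 210, 223 and 209 CPM in the knockout libraries. The knockout samples lay below all parental samples, with a log2 fold change of -0.19 (SE 0.029, adjusted p = 3.19e-07). Knockout libraries thus still held most of the mRNA, and counts over the whole gene do not check the labels.

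Of the 54 factor genes, 50 had enough counts to be tested. Between the groups, 16 of these were lower and 8 higher in the knockout (edgeR's quasi-likelihood test, p adjusted over all 15321 tested genes and below 0.05), and 26 did not pass. Across all tested genes 20.8% were lower and 21.2% higher (42% either way), so the members' 32% lower stood above and their 16% higher below that background. Factor mRNAs are abundant, and among the 9378 tested genes of at least 10 CPM, a level chosen after the values were seen, 26.7% were lower and 26.8% higher. The 43 members of that level had 15 lower and 8 higher, or 34.9% and 18.6%. With libraries scaled by their totals alone in place of TMM, the split among the members was 13 lower and 10 higher, and 18.1% of all tested genes were lower and 24.8% higher. The median log2 fold change of the members was -0.02, and that of all tested genes was 0.01. In 18 members all knockout samples lay below all parental samples and in 13 above, against 24.3% and 25.3% of all tested genes. Changes were small: the largest that passed was 1.54-fold. Fewer cells carrying an mRNA and less of it per cell cannot be told apart in such bulk samples.

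**Figure D1:**
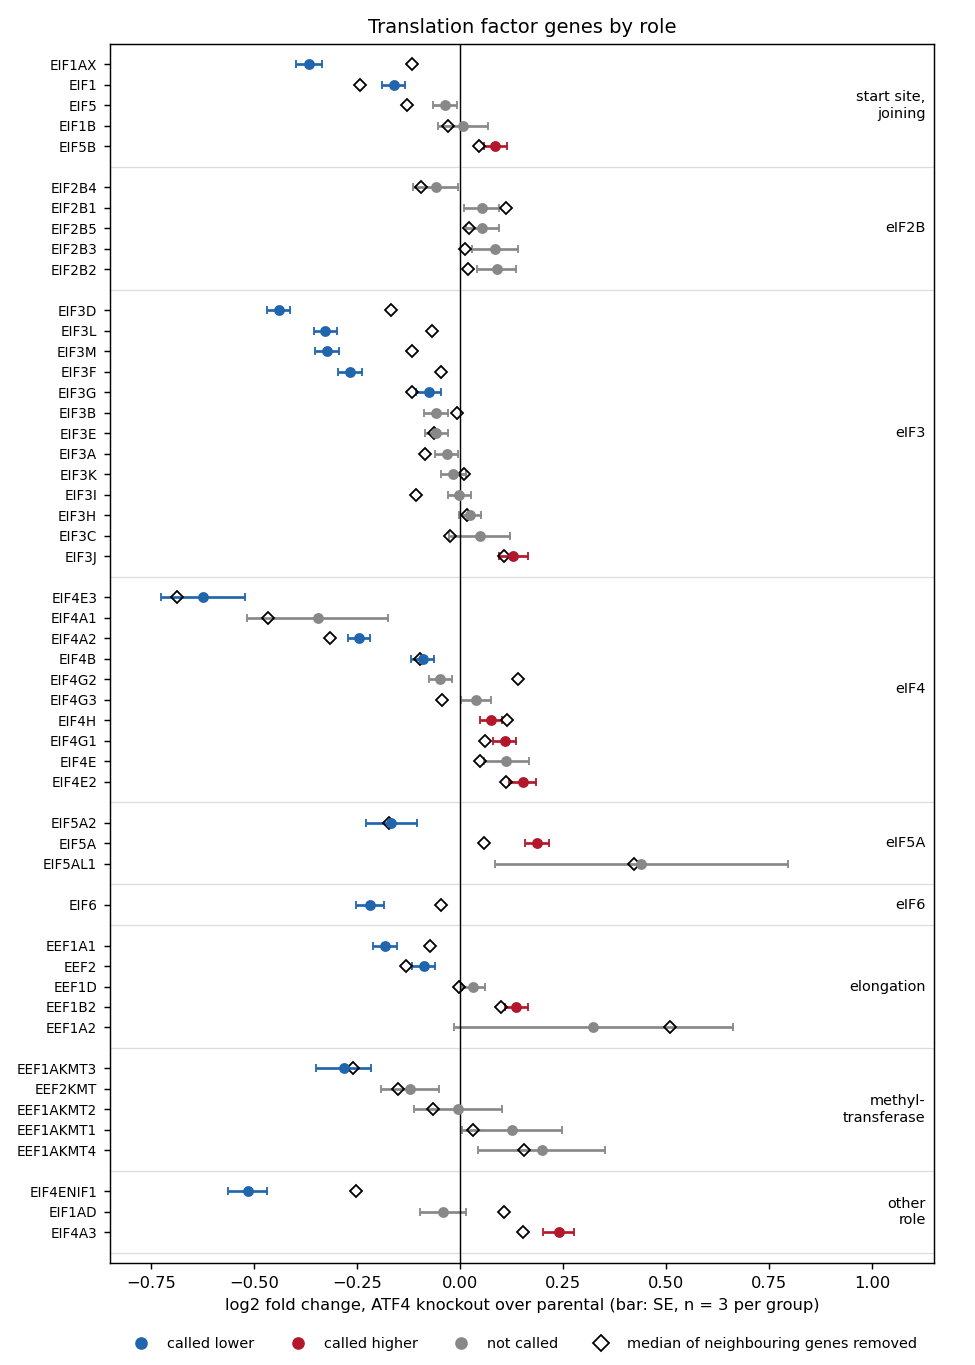
Log2 fold change, knockout over parental, of the 50 tested factor genes by role, with the standard error of the fit (n = 3 per group); blue points passed the test as lower (16), red as higher (8), and grey did not pass. Open diamonds give the same fold change after the median of the neighbouring genes was removed; for EIF3D it moved from -0.44 to -0.17, while EIF4E3 moved from -0.62 to -0.69.

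The largest difference was that of EIF4E3, a member of the cap-binding eIF4E family (chr3:71675416-71754773, minus strand). It stood at 10.2, 9.64 and 9.38 CPM in the parental libraries and at 7.37, 6.45 and 5.24 CPM in the knockout libraries. Every knockout sample was below every parental sample, and the spread within the knockout was the wider. The log2 fold change was -0.62 (SE 0.10, adjusted p = 1.14e-06), with means of 9.75 ± 0.439 and 6.35 ± 1.06 CPM (SD, n = 3). In EIF4E3 the promoter window of one annotated start (250 bases before to 50 after it, RefSeq, GRCh38.p14) was the only member window with the letters TGATGNAA, the core of the element bound by C/EBP-ATF dimers, searched on both strands. These letters occur in 1.69% of the 59 member windows and in 3.62% of all 35116 windows, and the match is a description of the sequence and not of binding. The capitals mark them at chr3:71729113-71729142, minus strand, and the stretch is shown because it lies beside an annotated start of the most changed member. That start lies inside the gene, whose outermost annotated 5′ end is at 71754773.
EIF4E3: tgccatggtgaTGATGAAAgttgggctgat

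The other cap-binding proteins moved the opposite way or did not pass. EIF4E2, a homologue of eIF4E that serves in repression of some mRNAs, was at 94.6, 96.1 and 96.3 CPM in parental and 107, 106 and 106 CPM in knockout libraries. It rose by 0.15 on the log2 scale (SE 0.033, adjusted p = 1.17e-04), with no overlap of the groups. EIF4E, the main cap-binding protein, was at 26.9, 25.9 and 27.1 CPM against 27.8, 27.8 and 30.7 CPM. The knockout values lay just above the parental ones, and the log2 fold change of 0.11 did not pass (adjusted p = 0.0976). The 24.2% of exonic bases of EIF4E2 that lie opposite other genes' exons make its count uncertain where strand was not used. EIF4E1B, an oocyte form, had 1 count in 1 library.

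Among the helicases, EIF4A2 (chr3:186783205-186789900, plus strand) stood at 405, 406 and 389 CPM in the parental cells. Knockout libraries gave 332, 337 and 342 CPM, all lower, for a log2 fold change of -0.25 (SE 0.028, adjusted p = 8.49e-11). EIF4A1, the main initiation helicase, had only 101, 102 and 136 counts in the parental and 72, 100 and 107 in the knockout libraries, or 2.32, 2.32 and 3.23 CPM against 1.75, 2.15 and 2.26 CPM. Its knockout libraries were all below the parental ones, and the log2 fold change of -0.35 (SE 0.17) did not pass (adjusted p = 0.103). Exons of other annotated genes on the same strand, mainly AC016876.2 and the readthrough gene SENP3-EIF4A1, cover 48.6% of its exonic bases, so this count is uncertain. EIF4B, a helicase cofactor, was lower by a small amount (log2 fold change -0.09, adjusted p = 0.00620), and EIF4H, a related cofactor, was higher (0.07, adjusted p = 0.0230).

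The scaffolds that join the cap to the ribosome differed less. EIF4G1, the main scaffold, was at 684, 660.0 and 678 CPM in parental and 748, 720.5 and 711 CPM in knockout libraries. It rose by 0.11 on the log2 scale (SE 0.028, adjusted p = 0.00123), and the groups did not overlap. EIF4G3 was at 80.9, 79.3 and 79.8 CPM against 77.5, 83.1 and 85.8 CPM, with overlapping groups and a log2 fold change of 0.04. The cap-independent relative EIF4G2 had a log2 fold change of -0.05 (adjusted p = 0.158). In all, 3 of the 10 tested eIF4 genes were lower and 3 higher, with a median of -0.004. Among all tested genes 20.8% were lower and 21.2% higher, and among those of at least 10 CPM 26.7% and 26.8%. EIF4E3, which was lower, and EIF4A1 fall below that level.

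**Figure D2:**
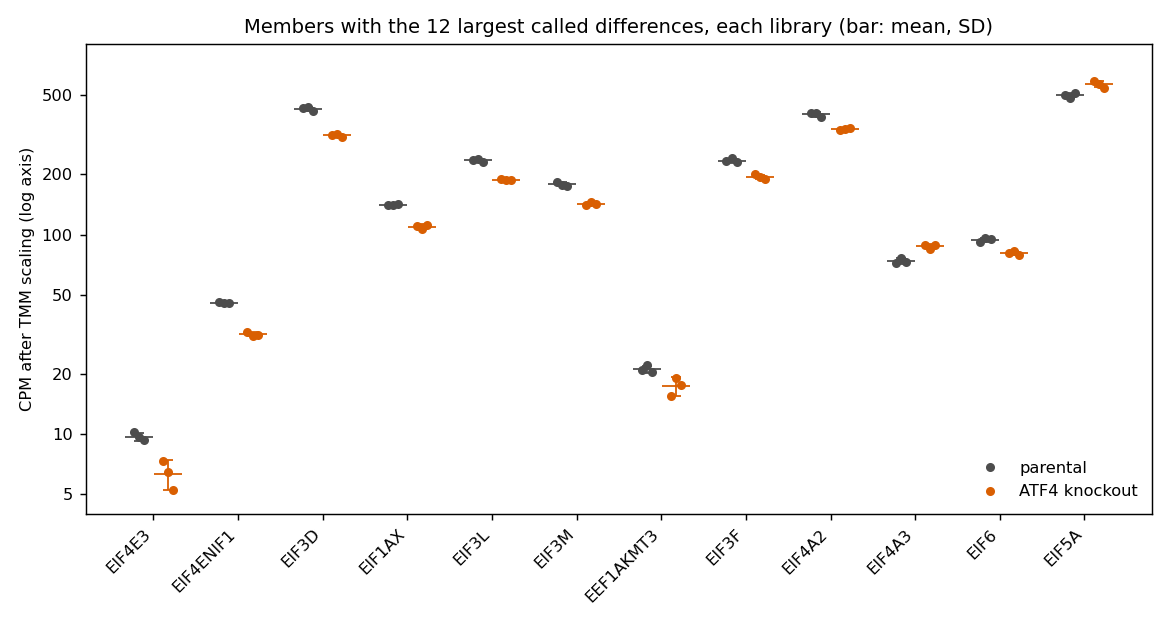
CPM after TMM scaling, on a log axis, in each of the 3 parental and 3 knockout libraries for the 12 members with the largest differences that passed the test; the wide bar is the mean and the whiskers the SD. EIF4A3 and EIF5A are higher in the knockout and the other 10 lower, and in none of the 12 do the groups overlap.

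In the eIF3 complex, the large scaffold that holds the small subunit ready for mRNA, 5 of the 13 tested genes were lower and 1 higher, against 26.7% and 26.8% of all tested genes of at least 10 CPM. The median log2 fold change of the 13 was -0.06. EIF3D, the subunit that can itself contact the cap (chr22:36510850-36529436, minus strand), was at 428, 436 and 413 CPM in the parental and 314, 318 and 309 CPM in the knockout libraries. It fell by 26.3% (log2 fold change -0.44, SE 0.028, adjusted p = 1.02e-19). EIF3L, which binds as a pair with EIF3K, lies on the same chromosome (chr22:37848868-37889407, plus strand) and gave 236, 240.3 and 232 CPM against 189, 187 and 188 CPM. The difference was -0.33 on the log2 scale (SE 0.028, adjusted p = 1.42e-14), although 41.1% of its exonic bases are shared with AL022311.1 on the same strand.

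EIF3M and EIF3F, a PCI and an MPN domain subunit, both lie on chromosome 11. EIF3M (chr11:32583798-32606262, plus strand) was at 184, 177 and 176 CPM in parental and 141, 146 and 142 CPM in knockout libraries, a log2 fold change of -0.32 (SE 0.030, adjusted p = 1.48e-13). EIF3F (chr11:7970251-8001862, plus strand) was at 232, 241 and 229.9 CPM against 200.1, 194 and 190.1 CPM, a log2 fold change of -0.27 (SE 0.029, adjusted p = 2.56e-11). In all 4 subunits the knockout samples lay clearly below the parental ones. EIF3G, which binds RNA near the entry channel, was lower by a log2 fold change of -0.08 (adjusted p = 0.0421) with overlapping groups, and only 1 of the 6 fits that leave out a library kept the call. EIF3J, the loosely bound subunit, rose by 0.13 on the log2 scale (SE 0.036, adjusted p = 0.00258). The core subunits EIF3A, EIF3B and EIF3E had log2 fold changes of -0.03, -0.06 and -0.06, and EIF3H, EIF3I and EIF3K lay between -0.02 and 0.02. None of these 6 passed the test, and all had overlapping groups, but EIF3B passed without knockout replicate 1 (-0.10, adjusted p = 0.00425) and EIF3E without parental replicate 3 (-0.08, adjusted p = 0.0180).

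Per kilobase of exon, the counts of the eIF3 genes were unequal in the parental cells. The divisor is the union of all annotated exons of a gene and not the length of the mRNA made. EIF3I and EIF3F, with parental means of 236 and 234 CPM, differ here through exon unions of 1725 and 9431 bases. The order below is thus that of this measure and may not be that of the mRNAs. EIF3I was the highest at 137 ± 2.82 CPM per kilobase (SD, n = 3), followed by EIF3D at 105 ± 2.85 CPM per kilobase. EIF3A and EIF3E followed at 80.6 ± 1.03 and 79.7 ± 2.61, neighbours that do not differ beyond their spread. Levels of 54.9 ± 0.985 for EIF3L, 53.1 ± 1.5 for EIF3K and 51.5 ± 0.331 for EIF3B also lay within about the spread of their neighbours, and EIF3H and EIF3G stood at 45.8 and 43.0 CPM per kilobase. EIF3J, EIF3F and EIF3M formed the low end at 25.03 ± 0.856, 24.9 ± 0.613 and 24.1 ± 0.601 CPM per kilobase. In the knockout EIF3D, at 77.1 ± 1.04, lay between EIF3A at 78.8 ± 1.87 and EIF3E at 76.6 ± 0.803, and EIF3J, at 27.4 ± 0.644, was above EIF3F at 20.6 ± 0.539 and EIF3M at 19.2 ± 0.305. EIF3C, at 2.07 CPM per kilobase, is not placed in this order, because EIF3C and EIF3CL are near-identical copies. Reads from either could go uncounted, and EIF3CL had 3 to 10 counts per library.

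**Figure D3:**
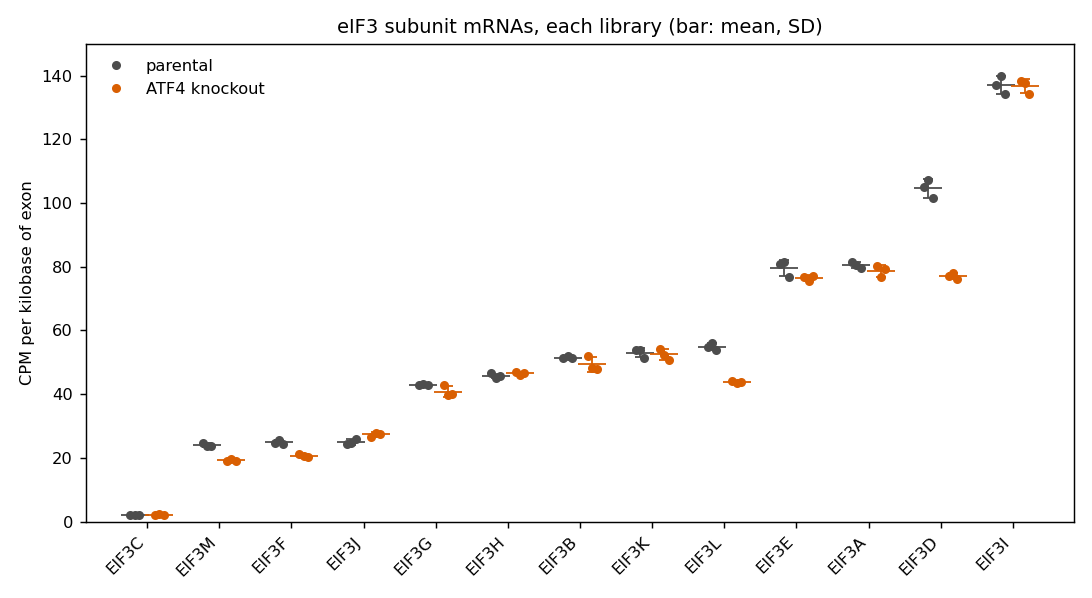
CPM per kilobase of exon in each library for the 13 tested eIF3 genes, ordered by the parental mean; the wide bar is the mean and the whiskers the SD (n = 3 per group). EIF3D falls from 105 to 77.1, to the level of EIF3A and EIF3E, and EIF3L, EIF3M and EIF3F also separate, while EIF3I at 137 in both groups does not.

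For the start site, EIF1AX, the X-linked gene of eIF1A (chrX:20124518-20141844, minus strand), was at 140.4, 141 and 143 CPM in parental and 111, 106 and 111 CPM in knockout libraries. The groups were far apart for their spread, and the log2 fold change was -0.37 (SE 0.031, adjusted p = 9.34e-15). EIF1, which guards against wrong start codons, was at 564, 589.6 and 553 CPM against 504, 509 and 514 CPM. It fell by 0.16 on the log2 scale (SE 0.028, adjusted p = 3.72e-06), with no overlap. Its paralogue EIF1B, at 20.98, 20.4 and 22.5 CPM in parental and 20.9, 20.9 and 22.4 CPM in knockout libraries, overlapped fully and had a log2 fold change of 0.01. EIF5, the GTPase activator of eIF2, had a log2 fold change of -0.04 that did not pass, and EIF5B rose by 0.09 (adjusted p = 0.0128).

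None of the 5 subunits of eIF2B passed the edgeR test, and their log2 fold changes ran from -0.06 to 0.09. At an unadjusted p below 0.05, by DESeq2 and by limma-voom the number was also 0. By edgeR 42% of all tested genes passed either way, and 53.5% of those of at least 10 CPM, a level that all 5 subunits reach. EIF2B2 passed with libraries scaled by their totals (0.11, adjusted p = 0.0428). The regulatory subunits come first: EIF2B1 (alpha) was at 52.4, 53.3 and 53.3 CPM in parental and 57.3, 53.4 and 54.3 CPM in knockout libraries. EIF2B2 (beta) was at 39.5, 38.0 and 39.2 CPM against 42.2, 40.6 and 41.2 CPM. EIF2B4 (delta) was at 28.1, 29.3 and 27.9 CPM against 27.5, 28.1 and 26.3 CPM. The alpha and beta subunits thus lay slightly higher in every knockout sample, the delta subunit overlapped, and none of these differences was distinguishable in the test. The catalytic subunit EIF2B5 (epsilon) was at 59.2, 59.7 and 61.7 CPM in parental and 62.5, 60.4 and 64.6 CPM in knockout libraries. Its partner EIF2B3 (gamma) was at 25.001, 23.9 and 25.7 CPM against 26.5, 26.8 and 25.8 CPM. The epsilon values overlapped, and the gamma values of the knockout lay just above. Per kilobase of exon, EIF2B1 was the highest at 14.6 ± 0.149 CPM, EIF2B5 followed at 8.37 ± 0.184, EIF2B3 and EIF2B2 at 7.29 ± 0.263 and 7.14 ± 0.148 did not differ beyond their spread, and EIF2B4 was the lowest at 5.32 ± 0.144. This order, too, depends on the union of annotated exons used as the divisor.

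Elongation factors make up most of the reads that fall in these genes. Members together took 2.71% ± 0.046 of all counts in the parental and 2.55% ± 0.020 in the knockout libraries (SD, n = 3), of which EEF1A1 alone took 1.21% ± 0.031 and 1.08% ± 0.012. EEF1A1, the tRNA-delivering GTPase (chr6:73515750-73523797, minus strand), was at 12297, 12426 and 11820 CPM in parental and 10768, 10849 and 10607 CPM in knockout libraries. All knockout samples were lower, for a log2 fold change of -0.18 (SE 0.029, adjusted p = 5.46e-07). Its neighbours on chromosome 6 had a median of -0.11, and -0.07 was left after their removal (adjusted p = 0.0389, with that median treated as known). EEF1A1 has many processed copies in the genome, to which some of its reads could be assigned. EEF2, the translocase (chr19:3976056-3985469, minus strand), was at 5386, 5431 and 5272 CPM against 5109.8, 5073 and 4948 CPM. It fell by 0.09 on the log2 scale (SE 0.028, adjusted p = 0.00871) without overlap, but did not pass with libraries scaled by their totals or without knockout replicate 3 (adjusted p = 0.0543).

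EEF1B2, the beta subunit of the eEF1 exchange factor, rose by 0.14 on the log2 scale (SE 0.029, adjusted p = 7.57e-05), from 337 ± 12.5 to 371 ± 7.85 CPM. Other genes' exons on the same strand, mainly RF02271 and SNORA41, cover 16.4% of its exonic bases. EEF1D, the delta subunit, had a log2 fold change of 0.03 (adjusted p = 0.382), and 34.0% of its exonic bases lie opposite other genes. EEF1A2, the form of muscle and neurons, was low, with counts of 14, 26 and 28 in the parental and of 24, 26 and 39 in the knockout libraries, which overlap. EEF1G, the gamma subunit, had 0 counts in every library, but 99.9% of its exonic bases are also annotated to AP002990.1 on the same strand. Its level cannot be read from these counts.

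EIF5A, which carries hypusine and relieves stalled ribosomes (chr17:7306999-7312463, plus strand), was at 500.5, 485 and 509 CPM in parental and 588, 568 and 545 CPM in knockout libraries. It rose by 0.19 on the log2 scale (SE 0.029, adjusted p = 3.18e-07). EIF5A2, its tissue-restricted paralogue, was at 21.2, 20.4 and 22.9 CPM against 18.9, 18.6 and 19.9 CPM. The groups did not overlap in either gene, and both moved, in opposite directions, EIF5A2 with a log2 fold change of -0.17 (SE 0.063, adjusted p = 0.0269) that missed the threshold in 6 of the 13 alternative fits. EIF5AL1, a retrocopy of EIF5A whose reads may come from it, had 25, 25 and 19 counts against 52, 26 and 18. EIF6, which keeps the large subunit from joining too early (chr20:35278911-35284985, minus strand), was at 91.8, 96.3 and 94.6 CPM in parental and 81.4, 82.9 and 78.7 CPM in knockout libraries. It fell by 0.22 on the log2 scale (SE 0.035, adjusted p = 6.79e-07), with no overlap of the groups, although 17.4% of its exonic bases are shared with AL121753.1 on the same strand.

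Members with other work included some of the larger differences. EIF4ENIF1, the eIF4E transporter that holds mRNAs in processing bodies (chr22:31436977-31496108, minus strand), was at 45.8, 45.3 and 45.3 CPM in parental and 32.7, 31.1 and 31.6 CPM in knockout libraries. It fell by 30.0% (log2 fold change -0.52, SE 0.048, adjusted p = 1.72e-13), and the groups were tight and far apart. EIF4A3 (chr17:80135214-80147183, minus strand) went the other way, from 71.8, 76.8 and 73.0 CPM to 88.7, 84.3 and 88.6 CPM, a log2 fold change of 0.24 (SE 0.037, adjusted p = 2.67e-07). EEF1AKMT3, a lysine methyltransferase of eEF1A (chr12:57771492-57782541, plus strand), was at 21.02, 22.2 and 20.5 CPM against 15.5, 19.1 and 17.7 CPM. Its knockout samples were lower but scattered (log2 fold change -0.28, SE 0.067, adjusted p = 4.74e-04). Of the 5 tested methyltransferase genes it was the only one to pass.

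Ratios of paralogues within a library need no scaling between libraries, and 6 pairs were compared with an exact two-sided permutation test, in which 3 samples against 3 cannot give a p below 0.1. The log2 ratio of EIF5A2 to EIF5A fell from -4.54 ± 0.054 to -4.89 ± 0.098 (SD, n = 3), a difference of -0.35 with no overlap (exact p = 0.1, adjusted over the 6 pairs 0.3). That of EIF1B to EIF1 went from -4.74 ± 0.118 to -4.57 ± 0.048, a difference of 0.17 with no overlap (exact p = 0.1, adjusted 0.3). Both reached the smallest p the design allows and neither passes. The ratios of EIF4E2 to EIF4E, EIF4G3 to EIF4G1, EIF4A2 to EIF4A1 and EEF1A2 to EEF1A1 differed by 0.04, -0.07, 0.10 and 0.54 with overlapping groups (exact p = 0.5, 0.4, 0.8 and 0.3). The ratio to EIF4A1 rests on its uncertain count, and that of EEF1A2 on few reads.

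Chromosomal position moved with many of these differences. Tested genes on chromosomes 11, 20, 21, 22 and X had median log2 fold changes of -0.16, -0.15, -0.22, -0.28 and -0.23, while the medians of the others lay between -0.08 and 0.09. Grouping by these chromosomes was chosen after the values were seen. Of the 10 tested members on them 7 were lower and 0 higher by edgeR (0 higher also at an unadjusted p below 0.05, by DESeq2 and by limma-voom), with a median log2 fold change of -0.30. Of all tested genes on these chromosomes 51.3% were lower and 7.44% higher. Of the 40 members on other chromosomes 9 were lower and 8 higher, with a median of 0.02, against 15.5% and 23.6% of all tested genes there. The labels give no genome copy numbers, and whether these chromosomes differ in copy number between the groups was not tested.

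Each gene was therefore also fitted after the median log2 fold change of the 50 nearest tested genes on each side was removed. That median was treated as known, so its own error is not in the p-values of this fit. In that fit 17 members were lower and 7 higher, beside 18.2% and 17.9% of all tested genes, and the median of the 10 members on those chromosomes was -0.06. EIF3F, EIF3L and EIF6 no longer passed, with log2 fold changes of -0.05, -0.07 and -0.05 (adjusted p = 0.228, 0.0553 and 0.323). EIF3D, EIF4ENIF1, EIF3M and EIF1AX passed at smaller sizes of -0.17, -0.25, -0.12 and -0.12. EIF5A, on chromosome 17 beside neighbours with a median of 0.13, was left with 0.06 (adjusted p = 0.106), and EIF4G1 and EIF5B, at 0.06 and 0.05, also no longer passed (adjusted p = 0.0886 and 0.212).

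Some members moved against their neighbours or apart from them. EIF4E3 had a neighbour median of 0.06 and gave -0.69 (adjusted p = 1.84e-07) after its removal. EIF4A2, with 0.07 around it, gave -0.32 (adjusted p = 3.16e-14), EIF1 gave -0.24 (adjusted p = 2.48e-10) and EEF1AKMT3 gave -0.26 (adjusted p = 0.00147). EIF4A3 moved in part with its neighbours, whose median was 0.09, and 0.15 was left (adjusted p = 5.96e-04). EIF4G2, whose neighbours on chromosome 11 had a median of -0.19, was then higher by 0.14 (adjusted p = 2.59e-05), and EIF2B1 higher by 0.11 (adjusted p = 0.0335). EIF4A1, EIF5, EIF3A and EIF3I then passed as lower, with log2 fold changes of -0.47, -0.13, -0.08 and -0.11.

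**Figure D4:**
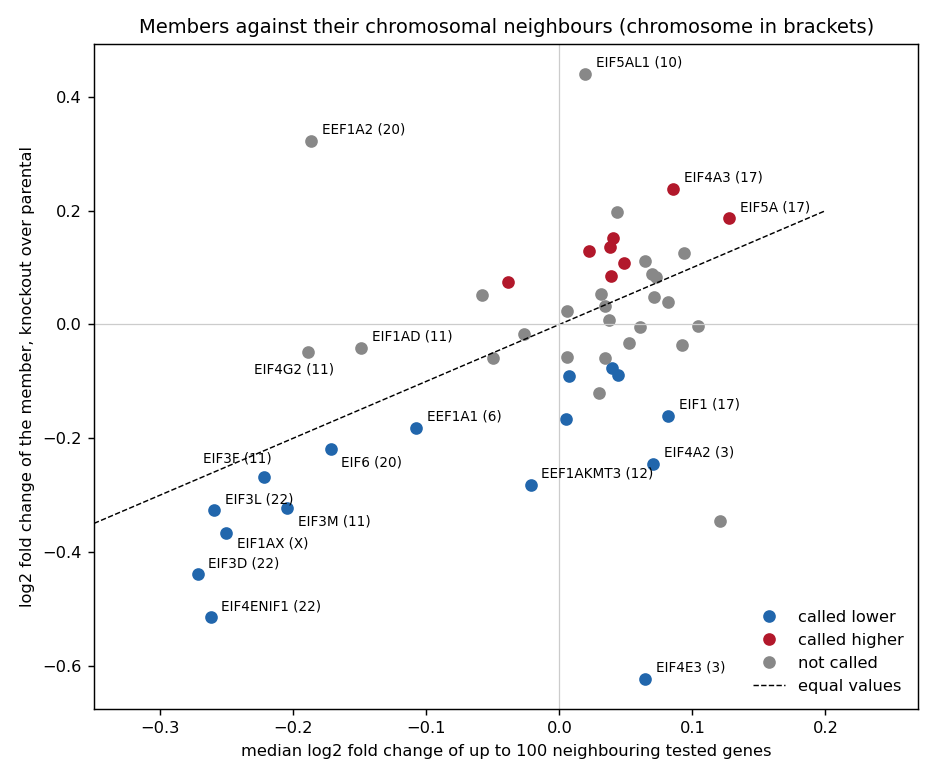
Log2 fold change of each tested member (vertical axis) against the median log2 fold change of up to 100 neighbouring tested genes (horizontal axis), with chromosomes in brackets; the dashed line marks equal values. EIF3D, EIF3L, EIF3M, EIF3F, EIF1AX and EIF4ENIF1 lie at the lower left, with neighbour medians of -0.27 to -0.20, while EIF4E3 and EIF4A2 lie far below the line.

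Many mRNAs of the translation machinery start with a C followed by a run of pyrimidines, the 5′ terminal oligopyrimidine tract through which mTOR and LARP1 control their use. Promoter windows were at hand for 43 of the 54 members. A C followed by at least 4 pyrimidines within 5 bases of an annotated start, on the strand of the gene, was found for 17 members, in 28.8% of their 59 windows and in 21.1% of all windows. In EIF1, EIF3C, EIF5 and EIF5A2 the run lies wholly before the annotated start, so the annotated mRNA does not hold it. These genes are still counted among the 17, EIF1 and EIF5A2 as lower. The sequences are shown because the members with a tract include the most abundant factors and, among the larger decreases, EIF3D, EIF3M, EIF3F and EIF4A2. Each line covers 10 bases before and 15 from the start, and capitals mark the tract. In order they lie at chr6:73521018-73521042 (minus), chr19:3985449-3985473 (minus), chr2:206159885-206159909 (plus), chr22:36529152-36529176 (minus), chr11:32583821-32583845 (plus), chr11:7987327-7987351 (plus), chr3:186783567-186783591 (plus) and chr12:53006446-53006470 (plus).
EEF1A1: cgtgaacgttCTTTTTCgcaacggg
EEF2: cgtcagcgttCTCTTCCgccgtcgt
EEF1B2: ctcttcgggtCCTTTTTCCTCTCTT
EIF3D: cgcatgtttCCTCTTTTCCTggttt
EIF3M: gcccagttCCCTTTTCCggtcggcg
EIF3F: cttccgCCTCCTTCTTTCTCgacaa
EIF4A2: gcgccgctgtCTTTTCagtcgggcg
EIF4B: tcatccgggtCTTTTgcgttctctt

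Of the 17 members with a tract 9 were lower and 4 higher, with a median log2 fold change of -0.09, and of the 23 tested members whose window had none 4 were lower and 4 higher, with a median of 0.04. With neighbours removed the medians were -0.07 and 0.01. Levels went with the tract: the median parental level was 65.2 CPM per kilobase with it and 8.34 without it, and the part of level in the counts was not tested. Tested genes of at least 10 CPM were lower in 26.7% and higher in 26.8%, and all tested genes in 20.8% and 21.2%. Some members without a tract, such as EIF4E3 and EIF5AL1, are below 10 CPM. The mRNAs of the cytosolic ribosomal proteins, which carry such tracts too, were lower in 23 and higher in 10 of 82 tested, with a median log2 fold change of -0.01. In EEF2 the letters TGACGTCA, the core of the cyclic AMP response element, also lie within its window, as in 1.85% of all windows, and no other member window held them. They are shown at chr19:3985458-3985487 (minus strand), just before the tract.
EEF2: aagctgagtgtTGACGTCAgcgttctcttc

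Beyond the members, 51 other genes of translation were listed, of which 49 were tested, with 11 lower, 12 higher and a median log2 fold change of 0.001. These shares of 22.4% and 24.5% lay near the 20.8% and 21.2% of all tested genes. The subunits of eIF2 itself moved apart. EIF2S3 (gamma, on chromosome X) fell from 634 ± 12.2 to 397 ± 3.38 CPM, a log2 fold change of -0.68 (adjusted p = 4.49e-28), larger in size than that of any tested member, and gave -0.43 with its neighbours removed. EIF2S2 (beta, on chromosome 20) fell from 157 ± 4.71 to 113 ± 3.23 CPM (-0.47, and -0.30 with neighbours removed), while EIF2S1 (alpha), the subunit that stress kinases phosphorylate, rose from 89.1 ± 0.883 to 102 ± 3.89 CPM (0.19). EIF4EBP1, which sequesters eIF4E, rose by 0.18, the poly(A)-binding protein partners PAIP1 and PAIP2B rose by 0.25 and 0.40, and MKNK1, a kinase of eIF4E, rose by 0.26. With neighbours removed EIF2S1, EIF4EBP1, PAIP1, PAIP2B and MKNK1 gave smaller rises of 0.16, 0.12, 0.14, 0.35 and 0.19, which still passed. GSPT2, a termination factor on chromosome X, had a log2 fold change of -0.30 that passed, and -0.08 with its neighbours removed (adjusted p = 0.197).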

How the data were processed

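RNA was sequenced from 3 parental and 3 ATF4 knockout RCC4 samples with a stranded mRNA kit. The deposited values are raw read counts per Ensembl gene, which, per the submitters' processing notes, the authors made with bcl2fastq 2.20, cutadapt, STAR and HTSeq on GRCh38; no source used here gives the other versions, the annotation release or the strand setting. Reads that fit more than 1 gene are left out by HTSeq's defaults, so counts of copies and overlapping genes are uncertain. Members and lists were chosen with earlier results of these data known. Symbols came from a gene-name table (60370 identifiers) and GENCODE 29 (289 more, and coordinates), and promoter windows from RefSeq (GRCh38.p14).

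Analyses used R 4.3.3. Genes were filtered with filterByExpr (edgeR 4.0.16), scaled by TMM and compared with edgeR's quasi-likelihood F test, robust and unblocked. Benjamini-Hochberg adjustment ran over the 15321 tested genes, with a threshold of 0.05. Fold changes are knockout over parental, CPM follow TMM scaling, and CPM per kilobase divides by the union of exons. The script was tested on simulated data. Values per library are given for the 12 members with the largest changes that passed, for the paralogue pairs, for EEF2 and for eIF2B, and by design up to 6 other translation genes plus EIF2S1 to EIF2S3 and EIF4EBP1 were named. Alternatives were DESeq2 1.42.0, limma-voom (limma 3.58.1), RLE factors, library totals, no low-count filter, a replicate block, removal of the median of 50 neighbours per side and leaving out each library.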

Additional observations from a re-analysis of the deposited data

How the results depend on the processing

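Of the 24 members that passed, 14 kept their call in all 13 alternative fits and 19 in all but the fit with the neighbours' median removed. EIF3G, EIF5A2, EIF5B, EIF4H and EEF2 lost theirs in other fits too, EIF4H without knockout replicate 1 or parental replicate 2, EIF5B without knockout replicate 1 or parental replicate 1, EIF5A2 by DESeq2, with library totals, without a filter and without knockout replicate 1 or 2 or parental replicate 3, and EIF3G by DESeq2 (adjusted p = 0.0753), limma-voom (0.0524), library totals (0.181), without a filter (0.0990) and with any library other than knockout replicate 1 left out (0.0670 to 0.243). EIF4G2 passed by DESeq2 (adjusted p = 0.0375) and EIF4E with library totals (0.0394), besides EIF2B2, EIF3B, EIF3E and the gains with neighbours removed. Members lower and higher numbered 15 and 8 by DESeq2 (all genes with an adjusted p 16.9% and 15.9%), 15 and 8 by limma-voom (20.5% and 20.8%) and 14 and 8 without a low-count filter (10% and 10.6%). Leaving out 1 library gave 14 to 16 and 6 to 8 members, beside 2803 to 3056 lower and 2791 to 3046 higher among all genes. The members' median log2 fold change was 0.0018 with library totals, -0.036 with neighbours removed and -0.048 to -0.019 with 1 library left out. Whether replicate numbers pair the samples is not in the labels, and the correlations cannot settle it (same-number values of -0.028, 0.006 and -0.016). Only knockout replicate 2 correlated best with its own number. A fit with the replicate block gave 16 lower and 8 higher members. Among all genes it gave 3181 lower and 3224 higher, against 3184 and 3244 without the block.

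Signs turned in fold changes that had not passed, and in ATF4; the causes were not tested. With library totals EIF3K was at 0.0097, EEF1AKMT2 at 0.022 and EIF3I at 0.024. With neighbours removed EEF1D was at -0.0026, EIF3C at -0.023, EIF1B at -0.030, EIF4G3 at -0.043, EIF3K at 0.010, ATF4 at 0.064, EIF1AD at 0.11 and EIF4G2 at 0.14. Without a filter EEF1AKMT2 was at 0.00011 and EIF3I at 0.0023. With 1 library left out the ranges were -0.017 to 0.013 for EIF3I, -0.030 to 0.049 for EIF1B, -0.045 to 0.0051 for EIF3K, -0.023 to 0.12 for EIF3C, -0.096 to 0.044 for EEF1AKMT2 and -0.18 to 0.76 for EIF5AL1. Paralogue ratio differences then ranged from 0.22 to 0.77 for EEF1A2 to EEF1A1, 0.11 to 0.23 for EIF1B to EIF1, -0.081 to 0.19 for EIF4A2 to EIF4A1, 0.012 to 0.091 for EIF4E2 to EIF4E, -0.12 to -0.0090 for EIF4G3 to EIF4G1 and -0.41 to -0.32 for EIF5A2 to EIF5A. Depth limits EIF4A1, EEF1A2 and EIF5AL1, whose counts per library were at most 136, 39 and 52.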
